A study of Mus musculus with 6 samples.

Results

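The regions described here are H3K9me3 peaks of Bergmann glia (BG) that lie far from the gene starts used in the authors' annotation and whose centre that annotation places on no repeat. They come from the deposited list of peaks found in WT BG and not in Setdb1 mutant BG, which holds 34673 peaks. A peak was a member when its annotation in that list was intergenic, its detailed annotation named neither a repeat nor a CpG island, and its distance to the nearest transcription start site (TSS) was above 100 kb. This held for 1849 peaks, or 5.33% of all (95% Wilson interval 5.10 to 5.57%), and they are called distal peaks below. They made up 25.7% of the 7183 intergenic peaks above 100 kb from a TSS, most of which had a repeat at the centre, and 25.8% of the 7157 intergenic peaks outside repeats at any distance. All intervals given are of this kind or, for a median, from its order statistics, and cover counting error only.

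The study sorted BG of C57BL/6 mice at postnatal day 10 by the GFP of a Nes-GFP transgene, and ran H3K9me3 ChIP-seq on 2 libraries of WT BG, 2 libraries of Setdb1 mutant BG and 2 control libraries. In the mutant, Setdb1 was deleted with mGFAP-Cre, which acts in the neural cells of the cerebellum other than Purkinje cells, so loss of Setdb1 was not confined to BG. The control libraries are titled as input but carry IgG as their antibody, and no source used here states their genotype. The list holds no value per library, so no difference between WT and mutant BG could be tested for any peak, and absence from mutant BG is the authors' criterion and not a result here.

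BG are the radial astroglia of the cerebellar cortex, and granule cells migrate along their fibres. H3K9me3, histone H3 trimethylated on lysine 9, marks silent chromatin, and Setdb1 places it at endogenous retroviruses, at clusters of zinc finger genes and at other repressed sequence. Setdb1 is brought to many of these sites by Trim28 and by KRAB zinc finger proteins, which read the sequence beneath. Sequence far from genes can be empty of function, but it also holds long-range enhancers, which for many developmental regulators lie very far from the promoter, as well as young gene clusters that the transcript models in use do not cover.

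The name gene desert held only in part. Distances of the distal peaks ran from 100.05 kb to 1832 kb with a median of 184 kb, and 1035 of 1849 lay between 100 and 200 kb, 692 between 200 and 500 kb, 103 between 500 and 1000 kb and 19 farther out. Of the 1846 on chromosomes 1 to 19, X and Y, 1031 (55.9%, 53.6 to 58.1%) were in gaps of at least 500 kb between protein-coding genes, which the rule on distance itself favours. With every gene model of the RefSeq annotation of GRCm38 counted, only 64 (3.47%) were in gaps of at least 500 kb, and 428 (23.2%, 21.3 to 25.2%) were inside a gene model. With 1 model taken for each peak, these were lncRNAs for 216 of the 428, pseudogenes for 97 and protein-coding genes for 73. With overlapping models counted, 79 were inside a protein-coding gene. The curated transcripts of that annotation gave a TSS above 100 kb away for 1625 of the 1846 (88.0%), whereas any annotated gene start was above 100 kb away for 252 (13.7%). The distal peaks are thus far from curated gene starts rather than far from all transcription units.

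The peaks at the top of the score and at the ends of the distance show 2 sorts of sequence, one for which other copies were found in the genome and one for which none were found. The score is the authors' and no source used here states its scale, so it only ranks peaks. The middle 200 bases of the 4 distal peaks with the highest score and of the 2 farthest from a TSS follow, named by the gene with the nearest TSS, from the forward strand of GRCm38 and with every CG dinucleotide, the site of DNA methylation, in capitals. They are chrX:34485911-34486110 at Btbd35f3, chr16:3232097-3232296 at Olfr161, chr15:60141835-60142034 at 4933412E24Rik, chr7:15196361-15196560 at Obox2, chrY:39789359-39789558 at Gm20738 and chrY:89057888-89058087 at G530011O06Rik.
Btbd35f3: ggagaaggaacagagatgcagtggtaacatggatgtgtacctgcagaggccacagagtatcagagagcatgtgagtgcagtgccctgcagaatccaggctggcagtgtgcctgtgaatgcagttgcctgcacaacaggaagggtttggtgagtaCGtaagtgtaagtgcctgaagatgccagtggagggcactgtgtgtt
Olfr161: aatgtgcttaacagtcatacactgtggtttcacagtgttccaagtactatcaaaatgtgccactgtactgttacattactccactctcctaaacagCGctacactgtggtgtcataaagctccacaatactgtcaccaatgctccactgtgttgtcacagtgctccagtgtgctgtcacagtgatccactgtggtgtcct
4933412E24Rik: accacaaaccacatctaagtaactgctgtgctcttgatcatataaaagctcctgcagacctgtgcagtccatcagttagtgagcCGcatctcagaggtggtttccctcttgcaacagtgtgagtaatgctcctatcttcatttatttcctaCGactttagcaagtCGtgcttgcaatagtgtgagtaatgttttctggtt
Obox2: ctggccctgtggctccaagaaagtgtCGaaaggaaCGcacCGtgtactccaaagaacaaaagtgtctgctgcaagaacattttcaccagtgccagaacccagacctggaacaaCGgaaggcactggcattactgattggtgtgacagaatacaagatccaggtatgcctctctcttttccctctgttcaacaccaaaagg
Gm20738: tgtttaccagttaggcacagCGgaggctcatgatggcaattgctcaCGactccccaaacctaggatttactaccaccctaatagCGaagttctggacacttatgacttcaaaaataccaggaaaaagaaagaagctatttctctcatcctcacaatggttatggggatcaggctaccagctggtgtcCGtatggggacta
G530011O06Rik: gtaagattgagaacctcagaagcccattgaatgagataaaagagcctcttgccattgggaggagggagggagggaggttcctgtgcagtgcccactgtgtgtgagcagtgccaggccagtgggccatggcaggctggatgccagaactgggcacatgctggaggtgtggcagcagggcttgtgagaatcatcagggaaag

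The first of these belongs to the distal peak with the highest score, 115.5, which was also the widest at 3497 bp, lay 324 kb upstream of Btbd35f3 and had 7 other copies in the genome, with a copy defined as a match of at least 90% identity over at least 80% of the peak. Matches that overlapped the peak itself were left out, so tandem units within a peak and shorter partial matches do not count as copies. Btbd35f3 is one of a family of BTB domain genes in many copies on the X chromosome. The peak at Olfr161, an olfactory receptor gene, scored 100.1, and the peak at 4933412E24Rik scored 62.6. Neither had another copy. The peak at Btbd35f3 lay inside the gene model Gm20941 and that at 4933412E24Rik inside Gm41331, while that at Olfr161 lay inside none. The peak at Obox2, an oocyte homeobox gene, scored 46.5, was 2698 bp wide, lay inside the pseudogene Obox4-ps17 and had 16 other copies. The peaks on the Y chromosome scored only 6.10 and 6.42 and had 22 and 100 other copies, so the largest distances to a TSS came from the amplified part of that chromosome. The window at G530011O06Rik had no CG and was soft-masked over all its bases, although the authors' annotation placed no repeat at the peak's centre. The windows at Btbd35f3 and Olfr161 each had 1 CG, that at 4933412E24Rik had 3, and those at Obox2 and Gm20738 had 4.

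The other sort is shown by genes with many distal peaks and no copy among them, beside a multi-copy peak for contrast. These windows were chosen after their values were seen, as a distal peak with the highest score at each of 4 of the 10 genes with most distal peaks. They are chr15:87242689-87242888, upstream of Fam19a5, a gene for a secreted chemokine-like protein, chr4:153595696-153595895 at Ajap1, a gene for a protein of adherens junctions, chr7:36529276-36529475 at Tshz3, a gene for a developmental zinc finger factor, and, for contrast, chr12:19856099-19856298 at the ncRNA gene 1700030C10Rik. Capitals again mark CG dinucleotides, of which there are 3 at Fam19a5, 3 at Ajap1, 8 at Tshz3 and none at 1700030C10Rik.
Fam19a5: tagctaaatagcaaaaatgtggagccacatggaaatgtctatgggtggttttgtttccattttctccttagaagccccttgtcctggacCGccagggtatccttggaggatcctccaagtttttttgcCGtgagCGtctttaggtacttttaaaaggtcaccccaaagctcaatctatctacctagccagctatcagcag
Ajap1: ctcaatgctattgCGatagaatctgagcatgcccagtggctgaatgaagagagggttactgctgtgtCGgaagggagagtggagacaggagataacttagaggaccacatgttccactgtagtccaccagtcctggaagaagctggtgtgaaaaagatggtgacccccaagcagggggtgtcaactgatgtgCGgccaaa
Tshz3: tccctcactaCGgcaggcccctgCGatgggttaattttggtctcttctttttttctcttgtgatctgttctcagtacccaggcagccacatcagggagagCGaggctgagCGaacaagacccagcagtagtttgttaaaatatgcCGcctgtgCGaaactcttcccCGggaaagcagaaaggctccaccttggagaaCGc
1700030C10Rik: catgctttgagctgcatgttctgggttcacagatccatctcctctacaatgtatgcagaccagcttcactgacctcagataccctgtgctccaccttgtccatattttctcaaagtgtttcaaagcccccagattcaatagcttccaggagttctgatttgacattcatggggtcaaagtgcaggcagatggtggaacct

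The scores of these peaks were 7.06 at Fam19a5, 10.3 at Ajap1, 7.70 at Tshz3 and 14.4 at 1700030C10Rik, whose peak had 27 other copies. They are the highest at each gene by choice, and at Fam19a5 and Ajap1 another distal peak had the same score.

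Scores of the distal peaks had a median of 6.74 with quartiles of 6.10 and 8.02 and a range from 4.49 to 115.5. The median was 7.06 over all peaks (quartiles 6.10 and 8.34), 6.74 for intergenic peaks outside repeats within 10 kb of a TSS (n = 1117), 7.06 for those at 10 to 100 kb (n = 4191) and 7.06 for the distal peaks with a repeat at the centre (n = 5331). Scores come in coarse steps, so these medians differ by no more than 1 step. A score of 10 or more was given to 198 distal peaks (10.7%, 9.38 to 12.2%), against 13.8% (13.5 to 14.2%) of all peaks. A score of 20 or more was given to 25 (1.35%, 0.917 to 1.99%), against 1.60% (1.47 to 1.74%) of all. Most were of the smallest width in the list, with 1463 of 1849 (79.1%) at 500 bp, against 77.1% of all peaks. Score and width moved together over the distal peaks (Spearman rho = 0.63, n = 1846), while score and distance to the TSS did not (rho = -0.01). These are descriptions over peaks, which share libraries and a peak call.

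Below the first 4, the 10 highest scores were 38.8 at Btbd35f10, 36.9 at Habp2, a gene for a hyaluronan-binding serine protease, 31.1 at 1810053B23Rik, 30.8 at Btbd35f14, 29.5 at Psmd7, a gene for a proteasome subunit, and 28.9 again at Btbd35f10. The peak at Habp2, 2867 bp wide with 43 CG dinucleotides and no other copy, lay in the 353 kb between Habp2 and Tcf7l2, a gene for a transcription factor of the Wnt pathway. The peak at 1810053B23Rik lay between Runx1 and Setd4, and the peak at Psmd7 lay between Psmd7 and Zfhx3. After the Y chromosome, the farthest distal peaks were in a single gap of 3611 kb between the protein-coding genes Igfbp7 and Adgrl3, a gene for an adhesion receptor of synapses. They were 1697 kb and 1604 kb upstream of Adgrl3, with scores of 7.70 and 5.78, and 1574 kb downstream of 1700017L05Rik, with a score of 5.78.

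Distal peaks stood out from their surroundings in base composition. Their median GC content was 48.8% (48.6 to 49.0%, quartiles 46.2 and 51.2%), against 43.4% (43.0 to 43.6%) in windows of 500 bases 5 kb to each side and 43.2% in the 100 kb around them. In 1577 of 1841 distal peaks with both side windows (85.7%, 84.0 to 87.2%), the middle 500 bases were richer in GC than the mean of the side windows, by a median of 5.30 percentage points. Other classes of peaks had such an excess too. Over all peaks the medians were 49.0% in the peak and 44.0% at the sides, within 10 kb of a TSS 50.4% and 46.4%, at 10 to 100 kb 49.9% and 45.4%, and at distal peaks with a repeat at the centre 48.0% and 40.0%. Peaks thus differed less in GC content between these classes than their side windows did. GC content can alter shearing, amplification and read counts, and its part in the peak call was not tested.

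**Figure D1:**
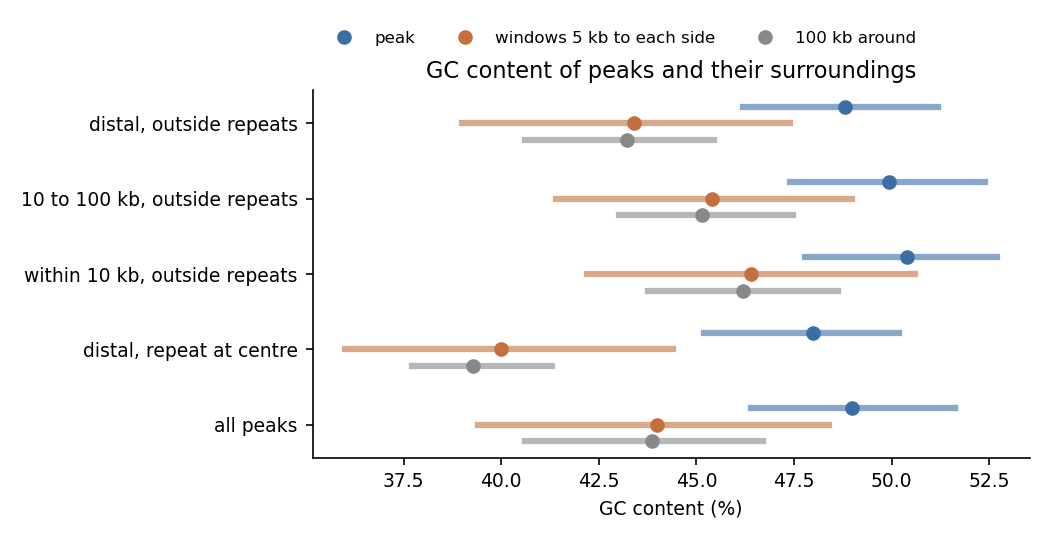
GC content in percent (x axis) for 5 classes of WT-specific H3K9me3 peaks (y axis): points are medians and bars run between the quartiles, in blue for the peak, orange for the windows 5 kb to each side and grey for the 100 kb around. The blue medians lie between 48.0 and 50.4% in each class, and the distal peaks outside repeats sit at 48.8% over surroundings at 43.2%.

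The distal peaks also lay in the parts of distal sequence that were rich in GC over longer stretches. Sequence above 100 kb from a curated TSS and outside curated transcripts came to 759 Mb, or 28.7% of the genome, with a GC content of 39.1% against 41.7% of the whole. Of this, 6481 tiles of 100 kb were at least 80% distal, and 797 of them (12.3%) held 1114 distal peaks. In the quintile of the tiles with the highest GC content, from 40.3 to 51.8%, there were 782 of the 1114 (70.2%), or 60.3 per 10 Mb. In the quintile with the lowest, from 33.7 to 37.0%, there were 52, or 4.01 per 10 Mb, and in the quintiles between them 4.63, 5.40 and 11.6 per 10 Mb. On the autosomes alone, 72.2% were in the highest quintile. Repeats moved with this, since a median of 30.2% of the bases were soft-masked in the highest quintile and 42.8 to 46.1% in the others, and their part was not tested.

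**Figure D2:**
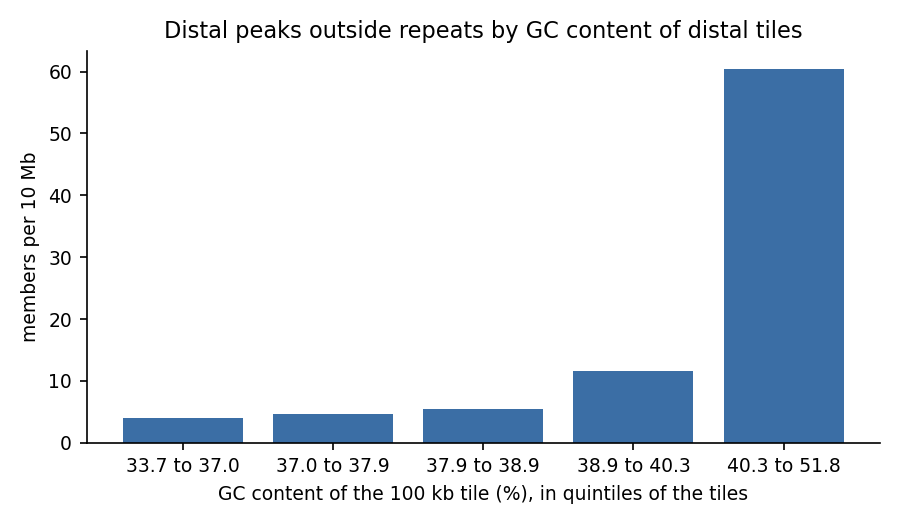
Distal peaks outside repeats per 10 Mb (y axis, bars from 0) in 6481 distal tiles of 100 kb, split into quintiles by the GC content of the tile (x axis, in percent). The bars are at 4.01, 4.63, 5.40, 11.6 and 60.3 per 10 Mb.

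At the median, CG dinucleotides were fewer than the C and G content of a peak would give, in distal peaks as in other classes. The median distal peak held 6 (range 0 to 43), and the ratio of observed to expected CG had a median of 0.19. That median was 0.21 over all peaks, 0.20 within 10 kb of a TSS and 0.19 at distal peaks with a repeat at the centre. The ratio was not computed for the side windows or the genome. Short words differed between distal peaks and their side windows too. Of 2080 words of 6 bases, read on both strands, CAGCAG showed the largest excess, in the middle 500 bases of 53.6% of distal peaks and in 36.4% of the side windows, followed by AGGCAG (56.2 and 39.2%) and CCACAG (51.4 and 34.5%). The largest deficits were in words of A and T, such as AAATAA (30.1 and 49.0%). These words were chosen for their difference, so they are a description, and the part of base composition in them was not tested.

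Although the rule kept out peaks centred on a repeat, it did not keep out repeats. At least 1 soft-masked base was in 1580 of 1846 distal peaks (85.6%, 83.9 to 87.1%), and the median share of masked bases was 10.8% of the peak, against 23.0% in the side windows and 29.8% over all peaks. From the centre of a distal peak, the nearest masked base was a median of 80.5 bp away, and for 204 (11.1%) the centre itself was masked in the genome sequence used here. At least 50% of the bases were masked in 126 (6.83%), against 7.26% within 10 kb of a TSS, 4.71% at 10 to 100 kb and 72.2% of the repeat-centred distal peaks. The nearest other peak had a repeat at its centre for 1006 distal peaks (54.4%), while 18697 of the 34600 peaks on the placed chromosomes, and 5331 of the 7183 intergenic peaks above 100 kb from a TSS, had one. That neighbour was itself a distal peak outside repeats for 728 (39.4%) and lay in a gene or CpG island for 31.

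The study set Setdb1 beside Nfix, a member of the nuclear factor I (NFI) family, whose factors bind a palindrome made of TTGGC and GCCAA set 5 bases apart. The single arm was searched as TTGGCA on both strands (TGCCAA on the other) in the middle 500 bases. It was in 543 of 1846 distal peaks (29.4%, 27.4 to 31.5%), in 23.5% (22.1 to 24.9%) of their side windows and in 26.6% (26.2 to 27.1%) of all peaks. The share was 25.5% (23.1 to 28.2%) within 10 kb of a TSS, 26.5% (25.2 to 27.9%) at 10 to 100 kb and 27.2% (26.0 to 28.4%) at distal peaks with a repeat at the centre. The interval of the distal peaks overlapped those of the classes at 10 kb or less, at 10 to 100 kb and with a repeat, and lay above those of their side windows and of all peaks. Other classes exceeded their own side windows too. Those windows held it in 22.8% within 10 kb, 23.7% at 10 to 100 kb, 23.3% with a repeat at the centre and 23.0% over all peaks. Split by GC content, the gap of the distal peaks to their side windows was smallest in the poorest sequence, with 26.5 and 23.5% at a GC content under 45%, 30.1 and 25.2% from 45 to 50% and 29.8 and 19.7% at 50% or more. A match is a description and not a bound site. The full palindrome was in 1 distal peak (0.054%), against 12 of 34600 peaks (0.035%). That peak scored 8.66, lay 208 kb downstream of Gm5114 and had 3 other copies. The 200 bases around its palindrome, chr7:39205023-39205222 on the forward strand of GRCm38, are shown with the palindrome in capitals.
Gm5114: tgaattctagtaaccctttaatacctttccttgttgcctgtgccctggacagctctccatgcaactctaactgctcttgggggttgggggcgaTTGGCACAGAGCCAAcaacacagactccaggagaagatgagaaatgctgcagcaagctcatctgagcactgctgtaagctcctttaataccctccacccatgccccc

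A part of the distal peaks lay in sequence that is not unique. Another copy was found for 292 of 1846 (15.8%, 14.2 to 17.6%), against 18.1% (16.9 to 19.4%) of their side windows, 10.8% (9.86 to 11.7%) of intergenic peaks outside repeats at 10 to 100 kb and 11.6% (9.81 to 13.6%) of those within 10 kb. The median number of other copies among the 292 was 4 with a highest value of 193, and 94 distal peaks (5.09%) had 10 or more. For 244 of the 292 (83.6%) all other copies were on the same chromosome. Reads that match several places were given a single location before deposit, so a score at such a site can hold reads of its copies, and how far it does was not tested.

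Distal peaks with another copy differed from those without in score, base composition and neighbours. Their median score was 7.38 (7.06 to 7.70), against 6.74 (6.42 to 6.74), and a score of 10 or more was found for 24.0% (19.4 to 29.2%) and 8.17% (6.91 to 9.64%). Their median GC content was lower, at 46.1% and 49.2%, with 41.2% and 43.5% in the 100 kb around. Another peak lay within 10 kb of 49.0% (43.3 to 54.7%) and 27.3% (25.2 to 29.6%), and 38.0% and 20.4% were inside an annotated gene model. The share with another copy was 13.7% up to a score of 6, 10.3% above 6 to 7, 15.4% above 7 to 8, 17.9% above 8 to 10, 30.8% (23.8 to 38.8%) above 10 to 15 and 48.1% (35.4 to 61.1%) of the 54 distal peaks above 15. Of the 20 highest scores, 11 had another copy.

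**Figure D3:**
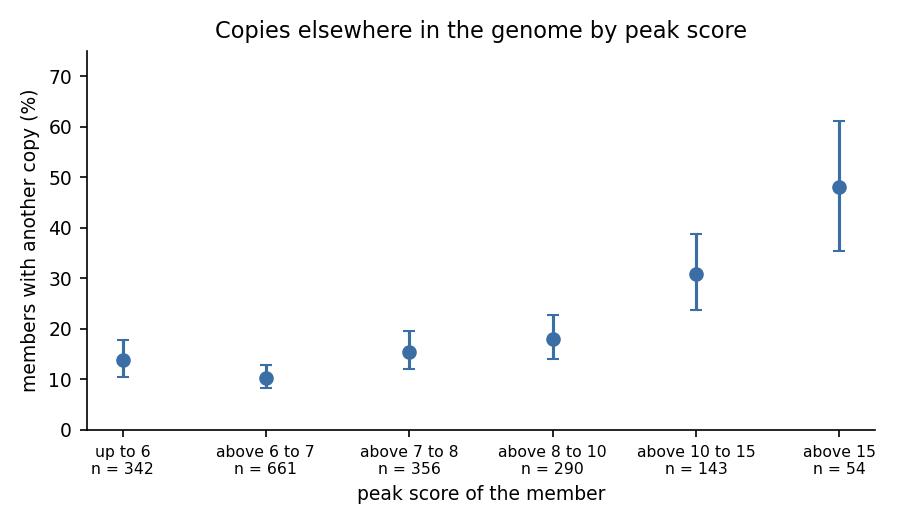
Share of distal peaks outside repeats with at least 1 other copy in the genome, in percent (y axis), by peak score (x axis, with the number of peaks): points are shares and bars are 95% Wilson intervals. The share is 10.3% above 6 to 7 and 48.1% above 15.

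The copies were unevenly spread over the chromosomes. Chromosome 12 held 194 distal peaks, the most of any, of which 105 had another copy, and the X chromosome held 63, of which 43 had one. Of the 16 on the Y chromosome 15 had one, whereas none of the 62 on chromosome 11 or the 33 on chromosome 19 did. Per Mb of unmasked distal sequence there were 7.64 distal peaks on chromosome 12, 7.35 on chromosome 7 and 6.04 on chromosome 17, and 2.42 on the X chromosome. The Y chromosome had 8.61 per Mb, over only 1.86 Mb of such sequence. Counting only those with no other copy, chromosome 12 had 3.51 per Mb, within the 2.39 to 5.78 per Mb of the other autosomes, and the X chromosome 0.77 per Mb, below every autosome. The Mb counted here still hold sequence with other copies. These rates can thus be lowered where such sequence is common, and by how much was not tested. The study used mice of either sex, and the part of sex in the rate on the X chromosome was not tested. The genome as a whole had 4.51 distal peaks per Mb of unmasked sequence beyond 100 kb, against 10.6 peaks per Mb at 10 to 100 kb and 8.89 within 10 kb. Intergenic peaks outside repeats were thus sparser, per unmasked base, beyond 100 kb from a TSS than nearer to one. The bases within 10 kb were counted up to the TSS, while the closest such peak lay 1.005 kb away. The rate within 10 kb is thus understated and cannot be ranked against that at 10 to 100 kb. Peaks were sorted by the deposited distance and bases by the distance to curated transcripts. GC content of these spaces was 43.4% within 10 kb, 42.1% at 10 to 100 kb and 39.1% beyond, and its part was not tested.

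**Figure D4:**
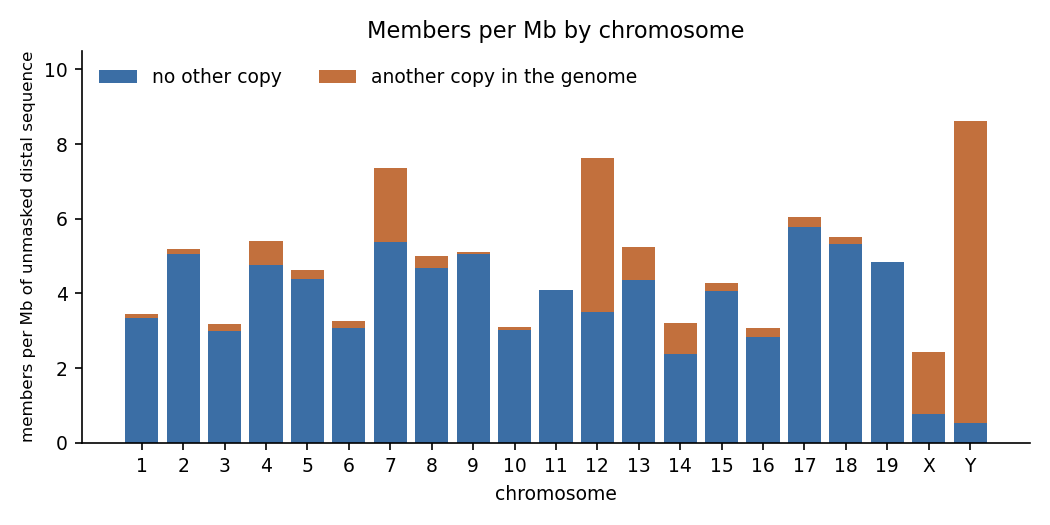
Distal peaks outside repeats per Mb of unmasked sequence above 100 kb from a curated TSS (y axis, stacked bars from 0) by chromosome (x axis), blue for peaks with no other copy and orange for those with at least 1. The orange part makes up more than the blue on chromosomes 12, X and Y, where 105 of 194, 43 of 63 and 15 of 16 have another copy.

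A stretch of chromosome 12 from 18 to 25 Mb alone held 82 distal peaks, 79 of them with another copy, at a median score of 8.50 (7.38 to 9.31). It supplied 5 of the 10 genes nearest to most distal peaks. These were 1700030C10Rik with 24 distal peaks, 2410018L13Rik and 5730507C01Rik with 15 each, and 9030624G23Rik and Gm4425 with 11 each. Gm4425 is a KRAB-domain pseudogene, of the gene family whose clusters are known targets of Setdb1. At 1700030C10Rik the distal peaks lay 121 to 1064 kb from the TSS with scores from 5.46 to 14.4, and 23 of the 24 had another copy. At Gm4425 all 11 had one, and the median score of 10.6 was the highest of the 10 genes. In the window from 20 to 21 Mb all 22 distal peaks had another copy, and in those from 22 to 23 and 23 to 24 Mb all 17 and all 16 did.

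The distal peaks at the microRNA gene Mir7094-2, 11 in number with scores from 5.46 to 17, were all inside gene models of Igh, the immunoglobulin heavy chain locus. This locus, whose segments are joined in B cells, held 27 distal peaks in all, with a median score of 7.70. Of the 11 at Mir7094-2, 9 had another copy, and none held TTGGCA. They were intergenic in the authors' annotation, which names the microRNA and not the locus.

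The other 4 of the 10 genes had no distal peak with another copy. They were Fam19a5 with 13, all upstream by 134 to 606 kb, Ajap1 with 10 at 113 to 389 kb on both sides, Tshz3 with 10 at 111 to 470 kb on both sides, and the ncRNA gene A930031H19Rik with 9. Scores there were low at Fam19a5 (5.78 to 7.06) and Tshz3 (5.46 to 7.70) and higher at Ajap1 (5.78 to 10.3) and A930031H19Rik (6.10 to 16.7). Ptpru, a gene for a receptor tyrosine phosphatase next to A930031H19Rik, had as many distal peaks, 9, with scores from 5.46 to 18.3. Median GC content of the distal peaks was 50.0% at Fam19a5, 50.8% at Ajap1 and 49.9% at Tshz3, against 47.0% at 1700030C10Rik and 45.4% at 5730507C01Rik, and the 100 kb around those at Ajap1 had a median of 48.9%. By windows of 1 Mb, chromosome 4 from 153 to 154 Mb held 19 distal peaks at Ajap1, BC039966 and Gm833, and chromosome 4 from 131 to 132 Mb held 18 at A930031H19Rik and Ptpru, none with another copy.

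**Figure D5:**
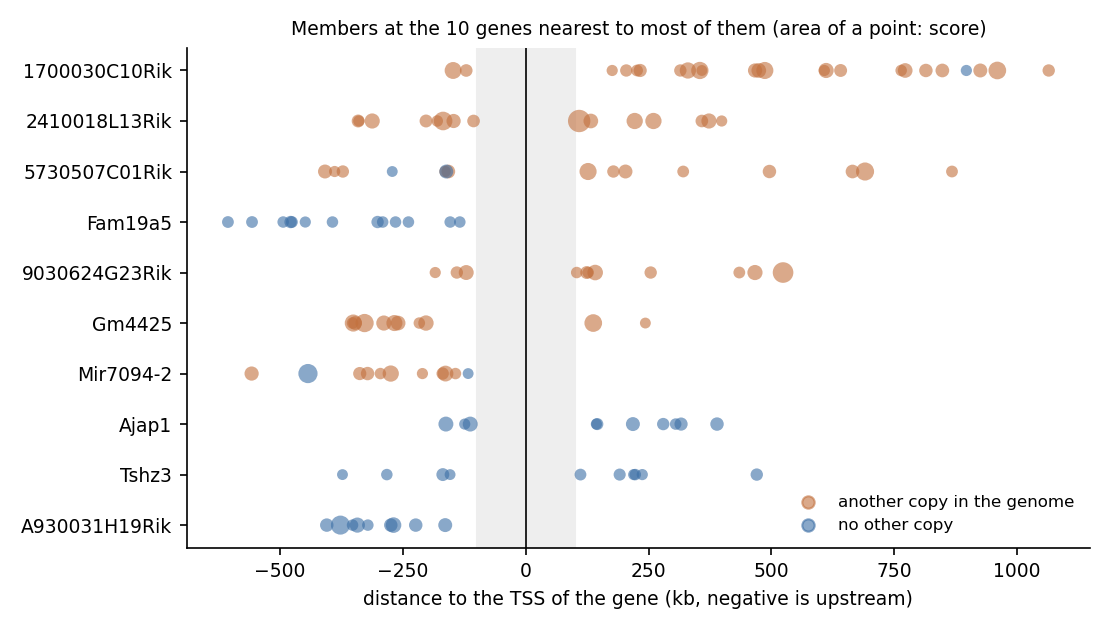
Distance in kb from the TSS (x axis, negative is upstream, grey for the 100 kb to each side that the rule leaves out) of every distal peak at the 10 genes nearest to most of them (y axis). The area of a point is proportional to the peak score, and the points at 5 genes of chromosome 12 from 18 to 25 Mb and at Mir7094-2 are mostly orange, for another copy, while all at Fam19a5, Ajap1, Tshz3 and A930031H19Rik are blue, for none.

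Distal peaks were shared out over 1009 nearest genes, of which 624 had 1, 385 had at least 2 and 58 had at least 5. The nearest gene was protein-coding for 1316 (71.2%, 69.1 to 73.2%) and a ncRNA for 497 (26.9%, 24.9 to 28.9%), against 80.6% and 17.1% over all peaks. Distal peaks lay upstream of the TSS in 872 cases (47.2%, 44.9 to 49.4%). Being nearest does not tie a peak to a gene.

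Among developmental transcription factors, 39 of 223 genes were nearest to at least 1 distal peak (17.5%, 13.1 to 23.0%), with 97 distal peaks between them, against 3.40% of all 21896 protein-coding genes. Any peak of the list was nearest to 156 of these 223 factors and to 48.7% of protein-coding genes. Genes differ in how much distal sequence surrounds them, so the distal tiles were counted as well. Tiles nearest to a developmental transcription factor held 48 distal peaks in 113 tiles, or 42.5 per 10 Mb, against 17.2 per 10 Mb over all tiles. Of these tiles 45.1% were in the highest quintile of GC content and within that quintile there were 82.4 per 10 Mb (42 distal peaks in 51 tiles) against 60.3. The genes with most were Tshz3 with 10, Sall3, a spalt zinc finger factor, with 8, all upstream by 176 to 442 kb, Irx3, an Iroquois homeobox factor, with 6 at 109 to 274 kb, and Foxl1, a forkhead factor, with 5 at 104 to 195 kb. Around the Iroquois cluster, chromosome 8 from 92 to 93 Mb held 12 distal peaks, 4 at Irx3, 4 at Irx5, 3 at Crnde and 1 at Irx6, with scores from 5.78 to 9.31 and no other copy. None of the distal peaks at Tshz3, Sall3, Irx3 and Foxl1 had another copy.

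Zinc finger genes named Zfp were nearest to a distal peak in 12 of 394 cases (3.05%, 1.75 to 5.25%), close to the share of all protein-coding genes. Their distal tiles were richer, with 15 in 29 tiles, or 51.7 per 10 Mb, and 55.2% of these tiles were in the highest quintile of GC content. Within that quintile there were 87.5 per 10 Mb (14 distal peaks in 16 tiles) against 60.3 over all tiles. Zfp507 had 8, all upstream by 111 to 373 kb, and Zfp536, a repressor in neuronal differentiation, had 7, all downstream by 296 to 468 kb. Both are next to Tshz3 on chromosome 7. Zfp369 had 3, all with another copy, and Zfp521 had 3 with none.

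Genes of cell contact were more often nearest to a distal peak than protein-coding genes at large, while their distal tiles as a whole held fewer of them per 10 Mb than all tiles. Of synaptic and neuronal adhesion molecules 13 of 61 had 1 (21.3%, 12.9 to 33.1%), of cadherins and non-clustered protocadherins 7 of 35 (20%, 10.0 to 35.9%), and of axon guidance cues and receptors 9 of 73 (12.3%, 6.62 to 21.8%). Against 48.7% of protein-coding genes, any WT-specific peak was nearest to 83.6, 82.9 and 63.0% of the genes in these 3 lists, in the same order. Their distal tiles held 7.76, 7.53 and 12.1 distal peaks per 10 Mb, below the 17.2 of all tiles, and 13 of 245, 3 of 146 and 10 of 91 of these tiles were in the highest quintile of GC content. Within that quintile there were 46.2, 133 and 40 per 10 Mb against 60.3 over all tiles, from 6, 4 and 4 distal peaks. Most distal peaks were at Cdh26 with 8, Adgrl2 and Lrfn2 with 4 each and the ephrin gene Efna5 with 4 at 138 to 1520 kb. Cdh5, Cdh6, Adgrl3, Cadm1, Efnb2 and the netrin receptor gene Dcc had 3 each, Cdh9 had 2 and the ephrin receptor gene Epha6 had 1.

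Genes known from cerebellar cell types had between 1 and 3 distal peaks each where they had any, and 3.40% of all protein-coding genes had at least 1. Of the BG and astroglia list 4 of 33 genes had 1 (12.1%, 4.82 to 27.3%). These were Gria1, a subunit of AMPA receptors, with 2 at 235 and 266 kb, and with 1 each Glul, the glutamine synthetase, at 100 kb, Slc1a3, the glutamate transporter GLAST, at 131 kb, and Zeb2, a transcription factor, at 211 kb. Scores ran from 6.10 to 8.66. The granule neuron lineage had 5 of 26 genes (19.2%, 8.51 to 37.9%), with 3 distal peaks at Gli2, 2 at Ccnd1 and 1 each at Mycn and Sema6a among them, and Purkinje cells 3 of 18 (16.7%, 5.84 to 39.2%), which were Skor2 with 3, Lhx5 with 2 and Dab1, the adaptor of reelin signalling, with 1. Of the oligodendrocyte lineage 0 of 17 genes had 1, with a Wilson upper bound of 18.4%. The intervals of the first 3 lists lie above 3.40% and overlap each other. Any WT-specific peak was nearest to 66.7, 65.4 and 88.9% of the genes of these 3 lists, against 48.7% of protein-coding genes. Their excess is thus not confined to distal peaks. The 26 distal tiles nearest to a gene of the BG and astroglia list held 3 distal peaks, or 11.5 per 10 Mb, against 17.2 over all tiles, and the other lists had under 20 tiles each.

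Extracellular matrix genes, the group the study follows in BG, were nearest to a distal peak in 5 of 123 cases (4.07%, 1.75 to 9.16%), with 1 each, at scores from 6.10 to 7.70 where named. Col1a2 had 1 at 125 kb, Col22a1 at 121 kb, Col4a2 at 147 kb and Itgb3, an integrin subunit gene, at 164 kb. The 3.40% of all protein-coding genes lies inside that interval. Any WT-specific peak was nearest to 85 of the 123 matrix genes (69.1%), against 48.7% of protein-coding genes. The 20 distal tiles of the matrix genes held 3 distal peaks, or 15 per 10 Mb, against 17.2 over all tiles. Glutamate and GABA receptors had 6 of 45 genes (13.3%, 6.26 to 26.2%), with 2 distal peaks at Gria1, 2 at Grin3a at 405 and 550 kb, and 1 each at Grik2 and Grik3. Potassium channels had 7 of 94 (7.45%, 3.65 to 14.6%), with 2 each at Kcng1 and Kcnk2 and 1 each at Kcnd3 and Kcnj3. Both intervals lie above 3.40%, while the distal tiles of these lists held 11.3 and 5.13 distal peaks per 10 Mb, below the 17.2 of all tiles. Any WT-specific peak was nearest to 75.6 and 67.0% of the genes of these lists. Olfactory receptors had 1 of 1108 (0.090%), Olfr161, whose 2 distal peaks scored 26.3 and 100.1, and vomeronasal receptors had 3 of 353 (0.85%), which were Vmn1r3, Vmn2r121 and Vmn2r47, with another copy for each of their 5 distal peaks. The H3K9 methylation machinery and NFI factors had 0 of 21, with an upper bound of 15.5%.

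Fewer distal peaks had a close neighbour at larger distances, although the intervals of adjoining groups overlapped. Another peak lay within 10 kb of 569 (30.8%, 28.7 to 32.9%), against 33.3% of all peaks, 38.0% within 10 kb of a TSS, 38.8% at 10 to 100 kb and 25.3% of repeat-centred distal peaks. The share was 33.8% (31.0 to 36.8%) at 100 to 200 kb, 27.7% (24.5 to 31.2%) at 200 to 500 kb, 22.3% (15.4 to 31.3%) at 500 to 1000 kb and 21.1% (8.51 to 43.3%) beyond. Median GC content of the 100 kb around was 43.9, 42.4, 38.8 and 37.4% in the same order, and the share with another copy was 13.0, 18.5, 22.3 and 36.8%. Their part in the share with a close neighbour was not tested. Median scores stayed at 6.74 in the first 3 groups and were 7.06 in the last, which had 19 peaks. The 2 distal peaks just inside the limit of 100 kb were at 100.05 kb, at Crnde with a score of 6.10 and at Ccnl1 with 5.46, and the 2 peaks just outside were at 99.9 kb, at Prickle1 with a score of 6.10 and at Twist2 with 5.13.

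Of the 1846 distal peaks, 5 (0.271%, 0.116 to 0.633%) overlapped a regulatory element of the RefSeq annotation. The share over all peaks was not computed. The peak at chr5:29086254-29086754, with a score of 7.06, overlapped MRCS1, an enhancer of Shh, whose coding gene forms 1 end of that gap, while the nearest TSS was that of Rnf32 at 109 kb. The peaks at Mroh5 (score 7.06), Cdh6 (6.74) and Mir3072 (6.42) overlapped tested enhancers of the VISTA collection, and the peak at Med13l (6.42) overlapped a regulatory region tested by CRISPR interference. At Cdh6 the overlap was only at the edge, since the peak ended at 13391907 and the enhancer began at 13391894. None of these 5 peaks had another copy, and each was 500 bp wide. Annotation of such elements is sparse, so the count is a lower limit.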

How the data were processed

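The authors aligned reads to mm10 with Bowtie2 (2.2.8 in the submitters' processing notes), gave multi-mapping reads 1 best location and called peaks with HOMER (4.10.1), with an excess of tags over the local surroundings required, keeping those present in WT and absent in mutant BG. How libraries were merged, which library served as control in the call and the scale of the score are not given in the sources used here. The deposited score was used only to rank peaks. The deposited list holds no depth and no value per library, so no test was run and the precision per sample is unknown.

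Peak sequence, gene models and soft-masking were read from RefSeq's GRCm38.p6, the build of mm10. For 71.6% of the distal peaks the deposited distance lay within 2 bp of that recomputed from curated transcripts. Copies were sought with minimap2 (2.31-r1302, k = 17, w = 7, up to 200 secondary matches). Tiles, motif counts and intervals were computed in Python 3.11.15 with pandas 2.3.3, scipy 1.17.1 and pysam 0.24.0, and the interval and motif code was tested on simulated data.

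Named genes are the 10 nearest to most distal peaks, those at the 10 highest scores and the 5 farthest peaks, and in each of 15 gene lists the up to 4 with most distal peaks. Genes outside this rule, such as Ptpru and Irx5, and the windows at Fam19a5, Ajap1, Tshz3 and 1700030C10Rik were added after their values were seen. Members and lists were chosen with earlier results of these data known. Of the 1009 nearest genes, 1006 had a symbol in RefSeq. Alternatives were other distances, scores, chromosomes, widths, clustering and gene models.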

Additional observations from a re-analysis of the deposited data

How the results depend on the processing

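Of 66 values recomputed under alternatives, 31 stayed inside the 95% interval of the value reported (for the count of distal peaks, within 1.5 times it) and 35 did not. The cause of no shift was tested beyond what each alternative's construction shows. With the distance set above 50, 200 and 500 kb there were 3267, 814 and 122 peaks, another peak lay within 10 kb of 34.3, 26.9 and 22.1%, median GC content was 49.2, 48.3 and 47.9%, and gaps between genes of at least 500 kb held 2.09, 7.37 and 24.6%. Above 500 kb, 87.7% had masked bases and 41.0% held TTGGCA. At scores of at least the median of all peaks there were 846, with a median score of 8.34, another peak within 10 kb for 33.2%, a median GC content of 49.1% and masked bases in 88.0%. Peaks of 500 bp had a median score of 6.42. Counting distal peaks within 10 kb of each other once left another peak within 10 kb for 24.2%. With distances recomputed from every annotated gene start there were 255, with a median score of 6.42, another peak within 10 kb for 17.3%, a median GC content of 48.4% and gaps of at least 500 kb for 18.4%. With a repeat at the centre also allowed there were 7183, and with no soft-masked base in the peak 266. Another peak lay within 5 kb of 17% and within 50 kb of 76.2%. At least 50% of the bases were masked in 6.83%, the full NFI palindrome was in 0.054%, and TTGGCA was in 31.7% of whole peaks. Gaps of at least 1 Mb held 0.433%, and gaps of at least 500 kb between protein-coding genes held 55.9%. No paired analysis was possible because no value per library was at hand and no test was run. The list limits what can be said in that it has neither depth nor replicate spread.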

Other observations

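The 3 distal peaks outside chromosomes 1 to 19, X and Y were left out of all values read from sequence. The pair on unplaced sequence of chromosome 1 had LOC100041034 as the nearest gene and scores of 15.7 and 8.99, and the one on unplaced sequence of chromosome 5 had Gm16367 as the nearest gene and a score of 7.06.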
